A study of Mus musculus with 12 samples.

Results

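Wnt signaling was read through 10 genes of the 21743 in the deposited table: the ligands Wnt5a, Wnt5b, Wnt6, Wnt7b and Wnt10a, the secreted antagonists Sfrp1, Sfrp2, Dkk2 and Dkk3, and the target gene Axin2. They were chosen by name as members of 1 pathway, with earlier results of these data known, and all 10 were present. Their RNA was counted in 21157 single cells by Drop-seq, which tags each captured molecule with a unique molecular identifier (UMI), in libraries from mammary glands and mammary tumors of 2 tumor-bearing mice. MG1 is gland tissue of mouse 1 (the fourth pair of glands, 2 libraries, 818 cells) and MG2 that of mouse 2 (2 libraries, 2335 cells). MT1 is the tumor of mouse 1 (5 libraries, 7690 cells) and MT2 the tumor of mouse 2 (3 libraries, 10314 cells). Both mice carried MMTV-Cre and Brca1 flox/flox on a mixed C57BL/6 and 129/Sv background, and the labels name no drug and no age. The Cre is driven by a viral promoter used in mammary epithelium, glands and tumors carried the same alleles, and there was no wild-type group. Suspensions had been enriched for epithelium by removal of hematopoietic and endothelial cells. Libraries of 1 tissue come from 1 animal, and p-values over libraries therefore measure only the spread between these libraries, which may be technical.

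Wnt proteins are secreted, lipid-modified ligands that bind Frizzled receptors, with LRP5 or LRP6 as partner when β-catenin is stabilized and with ROR or RYK receptors in β-catenin-independent signaling. SFRP proteins bind Wnt ligands outside the cell, while DKK proteins act at the LRP co-receptor, although DKK3 is an atypical member of its family. In the mammary gland Wnt signals take part in branching and in the upkeep of basal and stem cells, and forced Wnt expression under the MMTV promoter is a classical cause of mouse mammary tumors.

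Library totals ranged from 693333 UMIs (MG1 replicate 2, with 105 cells) to 14841414 UMIs, the most barcodes that any pair of them shared was 7, and replicate libraries differed by more than sampling noise. Cells were clustered without the Wnt genes, and clusters were named by markers. Clusters of fibroblast-like, immune-like and endothelial-like cells (1128 cells in all) were set apart as stroma, which left 20029 cells. Epithelial markers were high in MG1, MG2 and MT1 and low in MT2: outside the stroma, 8 of them summed to 7169 to 9337 CPM (UMIs of a gene scaled to the total UMIs of the same cells) in MT1 libraries, to more than that in every gland library, and to 643.5 to 874.7 in MT2. The sum of 7 mesenchymal markers was 6148 to 6371 CPM in MT2 and 1037 to 2178 in MT1 against 230.9 to 428.5 in glands. Of 8 fibroblast markers, none was at 0 in any group, and their sum outside the stroma was 3339 to 3782 CPM in MT2, 339.9 to 463.4 in MT1 and 308.0 to 715.6 in glands. The 7 hormone-sensing markers summed to 1583 to 2475 CPM in glands, 79.25 to 109.5 in MT1 and 40.46 to 44.15 in MT2 (Foxa1 and Prom1 at 0 in MT2). For 9 basal markers the sums were 729.5 to 824.3, 192.9 to 208.8 and 27.65 to 28.72 CPM (Oxtr at 0 in both tumors, Krt5 in MT2). The sum of 8 luminal secretory markers was 4331 to 9949 CPM in glands and 5317 to 9148 in MT1, but 12.75 to 22.38 in MT2. The part of these shifts in the changes of the members was not tested. MT2 consisted mainly of the unnamed clusters 1 and 2, and MT1 of the epithelial-like clusters 3 and 4 and the mesenchymal-like cluster. Below, a level is CPM over the cells outside the stroma unless another set is named.

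Tumor and gland of the same mouse were compared to see which members differed within each animal. In MT1 against MG1, Sfrp1 and Wnt10a were higher, and Wnt5a, Wnt5b, Dkk2 and Dkk3 were lower. In MT2 against MG2, Wnt6, Wnt10a and Axin2 were higher, and Sfrp1, Wnt5a, Wnt5b and Dkk2 were lower. Thus 6 of 9 members tested passed an adjusted p of 0.05 in mouse 1 (edgeR quasi-likelihood test), where 59.3% of all 13643 genes tested did so, and 7 of 9 in mouse 2, where 67.0% did. These shares are near the background, so the counts say nothing particular of the pathway. Sfrp2 was too low outside the stroma for this fit. The median log2 fold change of the 9 members was -1.28 in mouse 1 and -0.04 in mouse 2, beside 0.11 and -0.05 over all genes tested. Under another scaling (RLE) the median of all genes in MT1 against MG1 moved by -0.11. Gland libraries mix luminal and basal cells while tumor libraries hold mainly tumor clusters, so fewer cells of a type and less RNA per cell cannot be told apart in these sums.

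**Figure D1:**
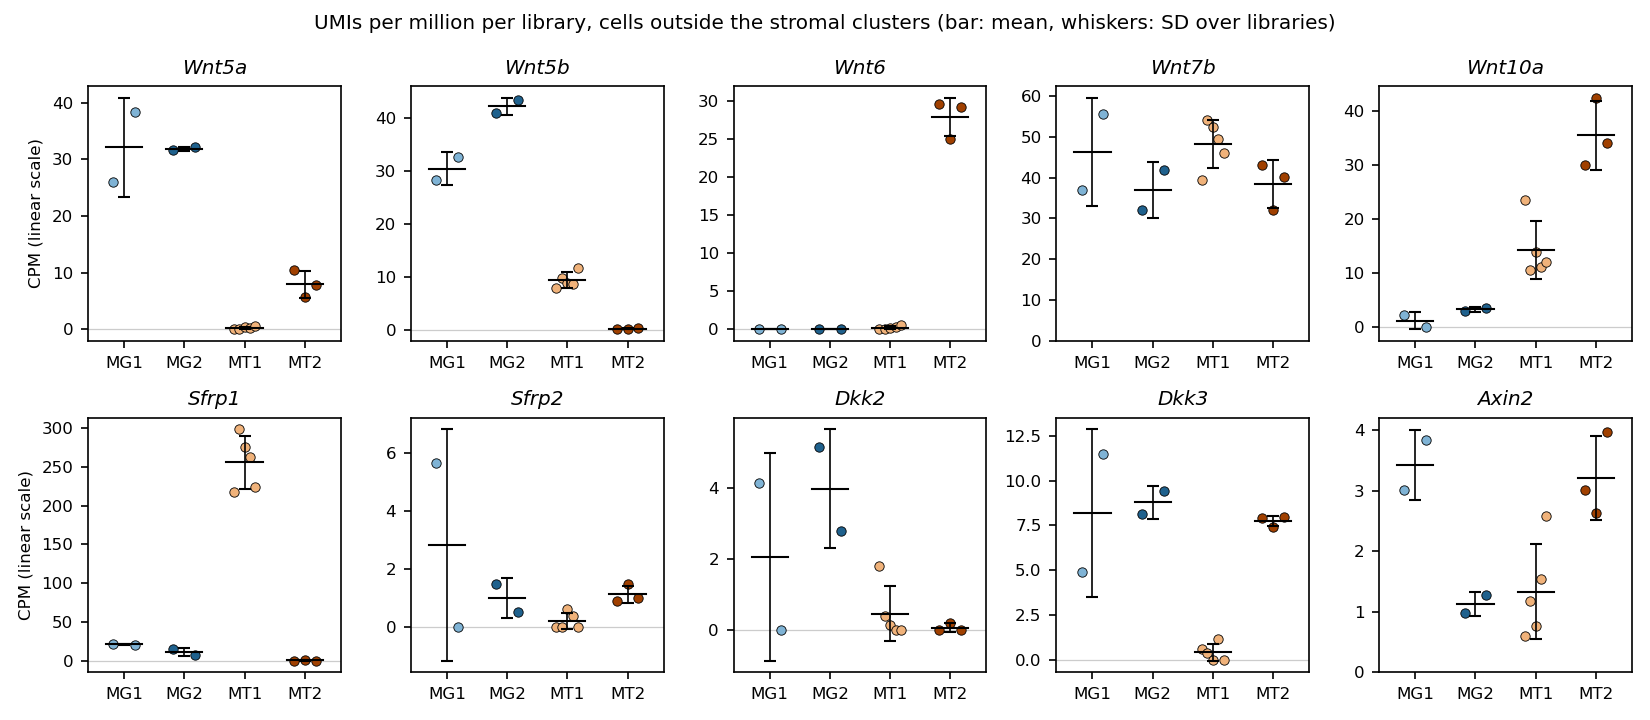
Level of each of the 10 genes in every library in CPM on a linear scale, over cells outside the stromal clusters; points are libraries, bars the mean and whiskers the SD of MG1 (n = 2), MG2 (n = 2), MT1 (n = 5) and MT2 (n = 3). Sfrp1 lies between 218 and 298 CPM in MT1 and at no more than 22.2 CPM elsewhere, while Wnt6 lies between 25.0 and 29.6 CPM in MT2 and at no more than 0.575 elsewhere.

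**Figure D2:**
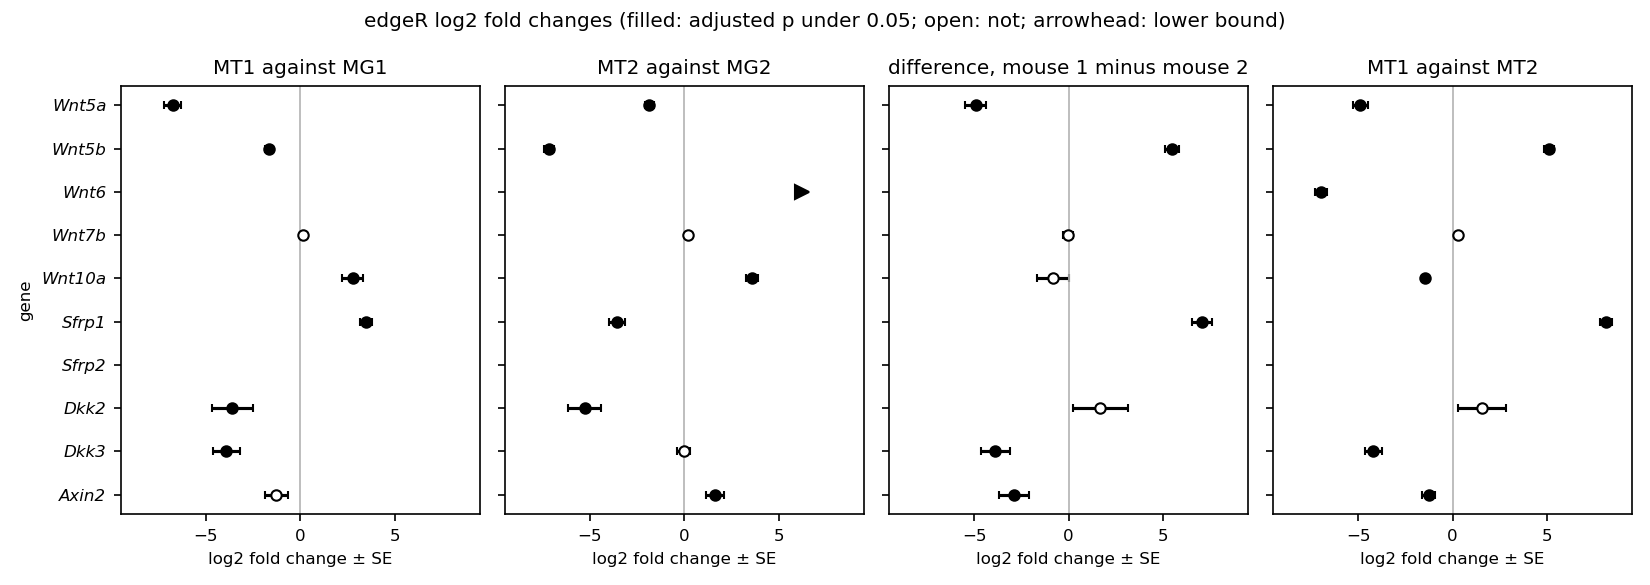
Log2 fold change of each gene (horizontal axis, ± SE, edgeR) for each tumor against its gland, for the difference of those changes and for MT1 against MT2; filled points passed an adjusted p of 0.05, and the arrowhead is the lower bound of Wnt6. Wnt10a (2.77 and 3.58) is to the right of 0 in both tumor against gland panels, Wnt5a, Wnt5b and Dkk2 are to the left, and Sfrp1 (3.49 and -3.57) lies on opposite sides.

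Wnt5a (chr14:28504750-28527448, plus strand, GRCm38) encodes a ligand best known for β-catenin-independent signaling. It stood at 26.0 and 38.3 CPM in MG1 and at 31.6 and 32.1 in MG2. MT1 libraries had 0, 0, 0.304, 0.193 and 0.575 CPM, from 5 UMIs in all, and MT2 libraries 10.4, 5.64 and 7.79. Both tumors thus lay below both glands without overlap, and MT1 lay below MT2. The log2 fold change was -6.76 (SE 0.44, edgeR adjusted p 1.71e-09) in mouse 1 and -1.86 (SE 0.24, edgeR adjusted p 1.50e-06) in mouse 2. With stromal cells kept, the change in mouse 1 was smaller (-4.39, edgeR adjusted p 3.82e-07). In the glands Wnt5a was carried mainly by luminal hormone-sensing-like cells, at 46.8 and 48.8 CPM in the MG1 libraries and 64.2 and 65.7 in those of MG2, against 4.90 and 15.9 (MG1) and 4.98 and 3.39 CPM (MG2) in luminal secretory-like cells. A UMI was seen in 17.6% of the 926 hormone-sensing-like cells of MG2 (exact 95% interval 15.2% to 20.2%), or 5.50% after thinning each cell to 800 UMIs. Among the 917 secretory-like cells it was 1.64% (0.294% thinned), at median depths of 2578 and 2501 UMIs. Fibroblast-like cells carried it too, with a wide spread: 30.9 and 0 CPM in the MG1 libraries, 78.5 and 36.9 in those of MG2, 13.6 to 121 in MT1 replicates 2 to 5 and 192, 38.9 and 131 in MT2. The summed markers of hormone-sensing cells, as given above, were likewise lower in both tumors than in the glands. The tumor clusters 1 and 2 of MT2 had 8.24 and 7.74 CPM.

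Wnt5b (chr6:119432531-119544347, minus strand), the close paralog of Wnt5a, was carried by the other luminal class. Its level was 28.2 and 32.6 CPM in MG1 and 40.9 and 43.3 in MG2. MT1 libraries had 7.86, 9.81, 8.96, 8.67 and 11.8 CPM, and MT2 libraries 0.280, 0.147 and 0.306, from 10 UMIs. Every tumor library was below every gland library, and here MT2 was the lower tumor. In mouse 1 the log2 fold change was -1.68 (SE 0.21, edgeR adjusted p 3.63e-06), and in mouse 2 it was -7.18 (SE 0.26, edgeR adjusted p 1.08e-13). Luminal secretory-like cells held 50.2% of all Wnt5b UMIs. They had 62.0 CPM in MG1 and 63.8 in MG2, where 19.8% and 17.8% of cells had a UMI (4.61% and 4.70% thinned). Hormone-sensing-like cells had 8.51 and 28.7 CPM. In MT1 the epithelial-like clusters 3 and 4 had 9.35 ± 2.74 and 13.0 ± 3.39 CPM (SD, n = 5 libraries), and the mesenchymal-like cluster 1.66 ± 1.14.

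Wnt5b has 3 starts in the RefSeq promoter table. The 250 bases before one of them hold core letters read by TCF and LEF factors, the DNA-binding partners of β-catenin, which is why this window is shown. The match is in capitals and begins at position -71 from the start (chr6:119449387-119449636, GRCm38.p6, minus strand). The letters searched were CTTTGAT and CTTTGTT on both strands.

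Wnt5b: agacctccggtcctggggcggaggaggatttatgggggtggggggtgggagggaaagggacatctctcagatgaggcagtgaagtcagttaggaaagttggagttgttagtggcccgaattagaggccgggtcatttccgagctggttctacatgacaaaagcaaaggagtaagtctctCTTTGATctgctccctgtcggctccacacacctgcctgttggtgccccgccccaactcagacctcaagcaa

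Promoter windows were found for 5 members (Wnt5b, Wnt6, Sfrp2, Dkk2 and Axin2), and this was the only one of their windows with a match. Of 32851 promoter windows of the same length, 8.06% held one, so a match is a description of the sequence only.

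Wnt6 (chr1:74771892-74785322, plus strand), a ligand of developing epithelia, separated MT2 from every other group. No UMI was counted in any of the 4 gland libraries. MT1 libraries had 0, 0, 0.152, 0.193 and 0.575 CPM, from 4 UMIs in all, and MT2 libraries 29.6, 25.0 and 29.2, from 1146 UMIs. All 3 MT2 libraries thus lay above all other libraries. MT2 was at least 74.3-fold higher than MG2 when MG2 is set at the limit of 3 counts over the group, with edgeR adjusted p 6.08e-10. Wnt6 entered the fit only through its MT2 counts, so this p-value is no support beyond the counts. A difference between MT1 and MG1 was not detectable at this depth (edgeR adjusted p 0.351). Within MT2, cluster 2, led by the cell division genes Cenpe, Top2a and Mki67, had 32.8 ± 5.26 CPM and cluster 1 had 24.2 ± 0.914 (SD, n = 3 libraries). Cluster 2 was the higher one in each library. A UMI was seen in 12.4% of cluster 2 cells (exact interval 11.4% to 13.5%) and 8.14% of cluster 1 cells (7.45% to 8.87%), or 2.47% and 1.84% after thinning. Immune-like cells of MT2, taken as the background, had a UMI in 2.23% (0.612% to 5.62%, and 0.619% thinned). Their median depth was 2285 UMIs per cell, below the medians of clusters 1 and 2 (2936.5 and 3500). Fibroblast-like cells of MT2 had a UMI in 4.04% (2.10% to 6.95%, which overlaps that of immune-like cells, and 1.15% thinned). Their libraries had 5.82, 27.2 and 13.8 CPM from 13 UMIs, and in replicate 2 this was as high as in clusters 1 and 2 (23.1 and 26.8 CPM). Over all cells the MT2 libraries had a UMI in 12.7, 6.50 and 11.7% of cells, and after thinning in 1.97, 1.96 and 2.19%. The lower unthinned share belongs to replicate 2, the library with the lowest median depth of the 3.

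The 250 bases before the annotated Wnt6 start are shown because this gene had 0 UMIs in the glands and 1146 in MT2 (chr1:74771642-74771891, GRCm38.p6, plus strand, RefSeq). They hold no match to the TCF/LEF letters, which says only that these letters are not in this window.

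Wnt6: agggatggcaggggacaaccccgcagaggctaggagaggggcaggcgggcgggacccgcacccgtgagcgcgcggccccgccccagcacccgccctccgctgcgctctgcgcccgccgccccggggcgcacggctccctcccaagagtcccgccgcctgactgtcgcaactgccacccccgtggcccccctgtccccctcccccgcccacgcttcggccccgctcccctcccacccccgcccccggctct

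Wnt10a (chr1:74791516-74804179, plus strand), a ligand of β-catenin signaling in skin, tooth and mammary development, starts 6193 bases beyond the end of Wnt6 on the same strand. It stood at 2.26 and 0 CPM in MG1 (6 UMIs) and at 2.96 and 3.57 in MG2. MT1 libraries had 23.6, 10.6, 13.8, 11.2 and 12.1 CPM, and MT2 libraries 30.05, 42.6 and 34.1. Every tumor library was above every gland library and every MT2 library above every MT1 library. The change was 2.77 (SE 0.55, edgeR adjusted p 3.21e-04) on the log2 scale in mouse 1 and 3.58 (SE 0.33, edgeR adjusted p 2.49e-08) in mouse 2. Without MG1 replicate 1 the gland of mouse 1 is left with 1 library at 0 UMIs, and the fitted value of 9.39 is no measure of size (edgeR adjusted p 0.00515). In MG2 basal-like cells had the highest level, at 24.8 and 34.1 CPM in the libraries against pooled levels of 1.40 in secretory-like and 0.843 in hormone-sensing-like cells. In MG1 basal-like cells held 3 of the 6 UMIs (9.48 CPM pooled), too few to rank the classes. In MT1 the epithelial-like cluster 3 had 2.96 ± 3.00 CPM, cluster 4 had 19.4 ± 2.46 and the mesenchymal-like cluster 33.2 ± 15.3 (SD, n = 5). In MT2 cluster 2 had 42.2 ± 6.10 CPM and cluster 1 30.1 ± 6.01 (n = 3), with higher values in cluster 2 in each library. Immune-like cells of MT2 had a UMI in 3.91% (0.887% thinned), against 9.47% and 15.8% of clusters 1 and 2 (2.34% and 3.25% thinned).

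Within 100000 bases of Wnt6 and Wnt10a, 5 other genes were in the table. Of these, Cyp27a1, Prkag3, Cdk5r2 and Gm29539 were at or below 1.62 CPM in every group over all cells. The fifth, Ttll4, was higher in MT2 than in MG2 by 0.57 on the log2 scale (edgeR adjusted p 0.0157). Gm29539 is annotated antisense to Wnt6 and had 37 UMIs, all in MT2. Whether the counting used strand is not stated, so reads of Wnt6 and Gm29539 cannot be told apart. The same holds for Wnt5a, Wnt5b, Wnt7b, Sfrp2 and Axin2, each of which overlaps an annotated gene on the other strand.

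Wnt7b (chr15:85535437-85582473, minus strand), a luminal ligand, did not pass the test in either mouse. It stood at 36.9 and 55.6 CPM in MG1 and 32.1 and 41.8 in MG2. MT1 libraries had 39.3, 54.2, 52.4, 49.5 and 46.0 CPM, and MT2 libraries 43.2, 32.0 and 40.2. Each tumor overlapped its gland. The log2 fold change was 0.16 (SE 0.20, edgeR adjusted p 0.507) in mouse 1 and 0.20 (SE 0.18, edgeR adjusted p 0.342) in mouse 2, which does not show that the levels were equal. The cells that carried it differed. Among luminal and basal classes of the glands it was highest in hormone-sensing-like cells (46.8 and 101 CPM in MG1, 42.0 and 49.7 in MG2) and lowest in basal-like cells (7.98 in MG1 replicate 1, 15.5 and 7.57 in MG2). Replicate 2 of MG1 held too few basal-like cells for a value. In MT1 the mesenchymal-like cluster had 99.6 ± 28.4 CPM, cluster 4 had 54.0 ± 4.57 and cluster 3 had 25.4 ± 6.01 (SD, n = 5), an order found in every library. The 44 MG2 cells of the mesenchymal-like cluster had 149.6 CPM from 36 UMIs (199 in replicate 2 alone), and 45.5% of them had a UMI (10.6% thinned). In MT2 the clusters 1 and 2 did not differ beyond their spread, at 38.0 ± 5.51 and 39.0 ± 7.55 CPM (n = 3).

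**Figure D3:**
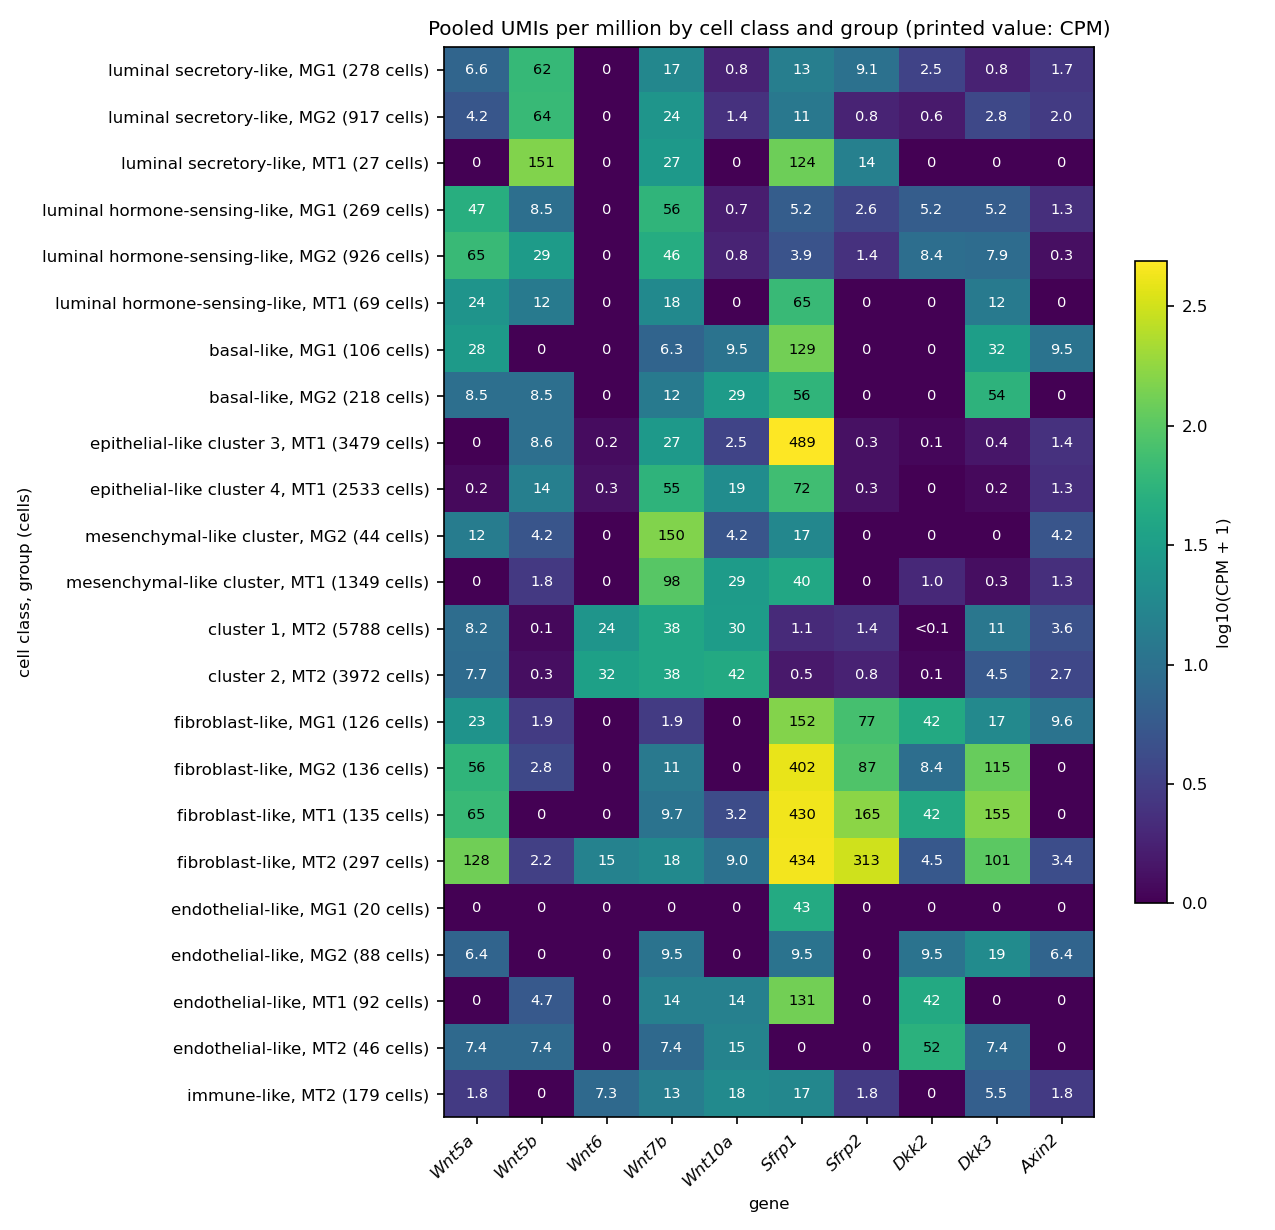
Pooled level of each gene (columns) in each cell class and group with at least 20 cells (rows), printed in CPM and coloured by log10(CPM + 1). The luminal classes of the glands split Wnt5a from Wnt5b, the fibroblast-like rows carry Sfrp1, Sfrp2, Dkk3 and Wnt5a in each group, and Wnt6 is at 0.319 CPM or less in rows other than those of MT2.

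Sfrp1 (chr8:23411502-23449632, plus strand), an antagonist that binds Wnt ligands, changed in opposite directions in the 2 mice. It stood at 22.2 and 21.1 CPM in MG1 and at 15.0 and 7.64 in MG2. MT1 libraries had 218, 298, 276, 262 and 224 CPM, and MT2 libraries 0.489, 1.61 and 0.458. All MT1 libraries were above both glands and all MT2 libraries below them. A log2 fold change of 3.49 (SE 0.32, edgeR adjusted p 1.11e-07) was found in mouse 1 and of -3.57 (SE 0.41, edgeR adjusted p 3.91e-07) in mouse 2. Cluster 3 of MT1 carried most of it, at 420.3, 518, 514, 500.2 and 431 CPM in the 5 libraries, against 70.6 ± 14.8 in cluster 4 and 35.6 ± 12.6 in the mesenchymal-like cluster. Sfrp1 is also the leading gene by fold of cluster 3. A UMI was seen in 56.1% of cluster 3 cells (exact interval 54.4% to 57.7%, and 29.0% thinned), in 11.6% of cluster 4 cells and in 7.93% of mesenchymal-like cells. MT1 cells of other classes also held Sfrp1 UMIs: 10.1% of the 69 hormone-sensing-like cells (3.54% thinned) against 1.30% of those of MG2 (0.178% thinned). In MT1 libraries with at least 20 such cells, hormone-sensing-like cells had 55.5 and 99.6 CPM (8 UMIs). Endothelial-like cells had 66.5 and 141 CPM (14 UMIs). The range of cluster 4 (54.4 to 93.4 CPM) overlapped both, and that of the mesenchymal-like cluster (18.5 to 52.2 CPM) lay below them. In the glands basal-like cells had 132 CPM in MG1 replicate 1 and 71.2 and 37.8 in MG2, while the luminal classes had 0 to 15.7 in the gland libraries. Fibroblast-like cells carried Sfrp1 throughout, with 118 and 255 CPM in MG1, 374 and 426 in MG2, 237 to 579 in MT1 replicates 2 to 5 and 382 to 489 in MT2. In MT2 they held 387 of the 431 UMIs of the gene, and with stromal cells kept the change in mouse 2 was smaller (-1.28, edgeR adjusted p 4.65e-05). In mouse 1 the gland level rose with stromal cells kept, to 34.3 and 66.3 CPM in MG1, while MT1 libraries had 222 to 294.

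**Figure D4:**
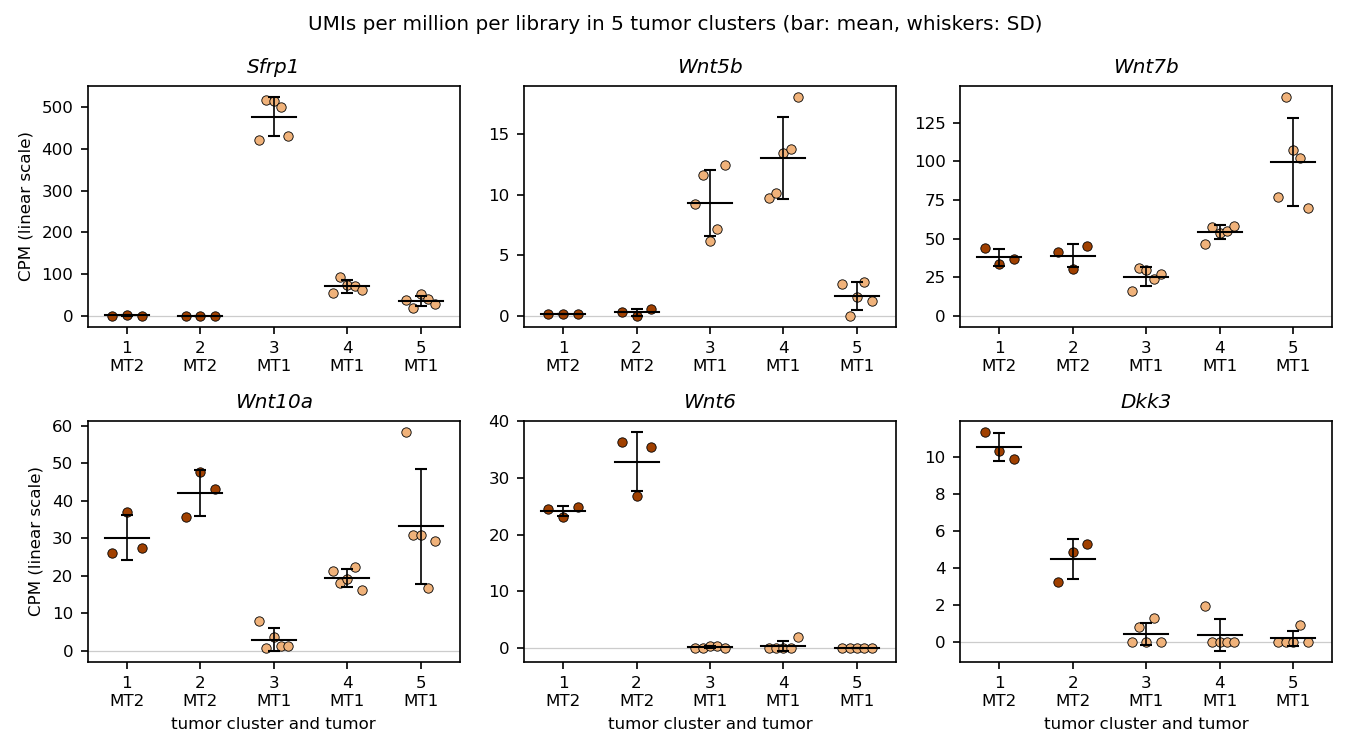
Level of 6 genes in CPM on a linear scale in the 5 tumor clusters; points are libraries of MT2 (clusters 1 and 2, n = 3) or MT1 (clusters 3 to 5, n = 5), bars the mean and whiskers the SD. Sfrp1 peaks in cluster 3 (420.3 to 518 CPM), Wnt7b in the mesenchymal-like cluster 5 (69.9 to 142 CPM), and Wnt6 is at most 1.91 CPM in a library of the MT1 clusters.

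Sfrp2 (chr3:83766321-83774316, plus strand), another SFRP antagonist, was a gene of fibroblast-like cells, which held 84.1% of its UMIs. Outside the stroma it had 5.65 and 0 CPM in MG1, 1.48 and 0.509 in MG2, 0, 0, 0.608, 0.386 and 0 in the MT1 libraries and 0.908, 1.47 and 0.993 in MT2. Within fibroblast-like cells the libraries had 100.3 and 7.72 CPM in MG1 and 72.4 and 100.0 in MG2. Those of MT1 replicates 2 to 5 had 187, 50.3, 191 and 242 CPM, while replicate 1 held too few such cells for a value, and those of MT2 had 387, 159 and 361. MT1 overlapped both glands there, and MT2 lay above both. A UMI was seen in 43.1% of MT2 fibroblast-like cells (19.7% thinned), 20.7% in MT1 (11.7%), 11.8% in MG2 (5.43%) and 12.7% in MG1 (4.55%). Over all cells, where the gene could be tested, MG1 libraries had 17.5 and 1.44 CPM and MT1 libraries 2.38, 5.62, 1.19, 3.01 and 3.92. MT1 passed as lower than MG1 (-2.13, edgeR adjusted p 0.00332), but only MG1 replicate 1 lay above the MT1 libraries, replicate 2 (1 UMI) lay among them, and the fit over all cells was not run without replicate 1. The gene did not pass in MT2 against MG2 (0.92, edgeR adjusted p 0.134). Fibroblast-like cells were 14.3 and 22.9% of the cells in MG1 libraries, 5.50 and 6.16% in MG2, 1.40 to 3.54% in MT1 and 1.83 to 4.15% in MT2. The part of these shares in the Sfrp2 change was not tested.

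Dkk2 (chr3:132085292-132180304, plus strand), an LRP-binding antagonist, was low throughout. It had 4.14 and 0 CPM in MG1 and 5.18 and 2.80 in MG2. MT1 libraries had 1.81, 0.393, 0.152, 0 and 0 CPM from 5 UMIs, and MT2 libraries 0, 0.220 and 0 from 3 UMIs. MT2 lay below MG2, while MT1 overlapped MG1 through the gland library at 0. The value in mouse 1 was -3.60 (SE 1.08, edgeR adjusted p 0.00813) on the log2 scale, and the call rested on MG1 replicate 1: without it the value was 3.82, edgeR adjusted p 0.744. In mouse 2 the ratio of MT2 to MG2 was 0.0182 (exact counting interval 0.00357 to 0.0583), with edgeR adjusted p 3.56e-05. Its UMIs came mainly from fibroblast-like (37.5%), hormone-sensing-like (33.9%) and endothelial-like cells (17.0%), a cluster in which 6 of 9 basal markers were raised as well. In fibroblast-like cells the libraries had 54.0 and 7.72 CPM in MG1 (22 UMIs, all but 1 of them in replicate 1) and 6.04 and 10.5 in MG2 (3 UMIs). In the tumors these cells had 17.3 to 68.2 CPM in MT1 replicates 2 to 5 and 0 to 6.88 in MT2 (4 UMIs).

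Dkk3 (chr7:112116017-112159057, minus strand), the atypical DKK protein, was at gland level in MT2 and near 0 in MT1. It stood at 4.90 and 11.5 CPM in MG1 and 8.14 and 9.42 in MG2. MT1 libraries had 0.605, 0.393, 0, 1.16 and 0 CPM from 8 UMIs, and MT2 libraries 7.90, 7.40 and 7.94. MT1 lay below all other groups, and MT2 lay within the range of MG1 and just below MG2. Log2 fold changes were -3.92 (SE 0.70, edgeR adjusted p 1.22e-04) in mouse 1 and -0.04 (SE 0.35, edgeR adjusted p 0.930) in mouse 2. In the glands it was found in basal-like cells (35.9 CPM in MG1 replicate 1, 40.3 and 71.9 in MG2) and fibroblast-like cells (12.9 and 30.9 in MG1, 127 and 105 in MG2). Hormone-sensing-like cells had lower levels than basal-like cells (2.38 and 18.8 CPM in MG1, 7.75 and 7.99 in MG2) but were more numerous, and held 8 and 28 UMIs against 10 and 32 in the latter. In MT2 cluster 1 had 11.4, 10.3 and 9.89 CPM and cluster 2, led by cell division genes, 3.24, 4.86 and 5.30, so that cluster 1 was higher in each library. Fibroblast-like cells of MT1 had 155 CPM from 48 of the 56 Dkk3 UMIs of that tumor, and with stromal cells kept the change in mouse 1 was smaller (-1.49, edgeR adjusted p 0.0143).

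Axin2 (chr11:108920349-108950783, plus strand), a scaffold of the β-catenin destruction complex that is itself induced by β-catenin, is the usual readout of canonical signaling. It had 3.01 and 3.83 CPM in MG1 (10 UMIs) and 0.986 and 1.27 in MG2 (9 UMIs). MT1 libraries had 0.605, 1.18, 0.759, 1.54 and 2.59 CPM, and MT2 libraries 3.00, 2.64 and 3.97. MT2 lay above MG2 and all of MT1, while it overlapped MG1. The fitted change was -1.28 (SE 0.60, edgeR adjusted p 0.0746) in mouse 1 and 1.62 (SE 0.50, edgeR adjusted p 0.00765) in mouse 2. The value in mouse 1 passed without MT1 replicate 5 (-1.60, edgeR adjusted p 0.0273), with stromal cells kept (-1.60, edgeR adjusted p 0.0162) and without the 5% of cells with most UMIs (-1.60, edgeR adjusted p 0.0350). Over all cells a UMI was seen in 0.122 to 0.587% of cells in MT1 libraries and 0.718 to 1.65% in MT2, and after thinning in 0.0690 to 0.176% and 0.198 to 0.311%. Clusters 1 and 2 of MT2 had 3.58 ± 0.844 and 2.74 ± 0.477 CPM (n = 3), and clusters 3 and 4 of MT1 had 1.25 ± 0.940 and 1.58 ± 0.899 (n = 5), and within each pair the ranges over libraries overlapped.

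The window before the Axin2 start (chr11:108920099-108920348, GRCm38.p6, plus strand, RefSeq) is printed because Axin2 is the readout gene. It holds none of the searched letters, and sequence elsewhere in the gene was not searched.

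Axin2: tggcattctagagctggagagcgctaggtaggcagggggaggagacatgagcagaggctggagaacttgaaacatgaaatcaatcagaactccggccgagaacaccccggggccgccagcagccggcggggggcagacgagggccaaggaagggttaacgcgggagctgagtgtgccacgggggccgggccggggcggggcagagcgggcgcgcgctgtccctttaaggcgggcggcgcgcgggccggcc

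Whether the 2 mice differed in their tumor to gland change was tested as an interaction over the 12 libraries. It passed for 5 of the 8 members with a usable test, where 43.5% of all genes passed. The change in mouse 1 exceeded that in mouse 2 for Sfrp1 (difference of log2 fold changes 7.06, SE 0.52, edgeR adjusted p 4.15e-09) and Wnt5b (5.50, SE 0.37, edgeR adjusted p 1.21e-09). It was below that in mouse 2 for Wnt5a (-4.91, SE 0.56, edgeR adjusted p 1.21e-06), Dkk3 (-3.88, SE 0.77, edgeR adjusted p 5.58e-04) and Axin2 (-2.91, SE 0.80, edgeR adjusted p 0.00662). The Dkk3 difference did not pass with stromal cells kept (-1.17, edgeR adjusted p 0.112), and that of Axin2 did not without MG1 replicate 1 (-2.87, edgeR adjusted p 0.123). Wnt7b (-0.04, SE 0.27, edgeR adjusted p 0.948), Wnt10a (-0.81, SE 0.83, edgeR adjusted p 0.462) and Dkk2 (1.69, SE 1.47, edgeR adjusted p 0.378) did not pass. Wnt6 could not be fitted here because both glands were at 0. With stromal cells kept, the differences of Sfrp1 (3.79, edgeR adjusted p 3.40e-08) and Wnt5a (-2.93, edgeR adjusted p 3.42e-04) passed but were smaller.

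Set directly against each other, the tumors differed in 7 of 9 members, where 68.4% of all genes did. MT1 was higher in Sfrp1 (log2 fold change 8.14, SE 0.32, edgeR adjusted p 1.76e-13) and Wnt5b (5.12, SE 0.28, edgeR adjusted p 1.08e-11). MT2 was higher in the ligands Wnt6 (-6.99, SE 0.32, edgeR adjusted p 9.49e-12), Wnt5a (-4.89, SE 0.41, edgeR adjusted p 6.55e-09) and Wnt10a (-1.44, SE 0.19, edgeR adjusted p 2.70e-06). It was also higher in Dkk3 (-4.20, SE 0.45, edgeR adjusted p 1.54e-07) and Axin2 (-1.27, SE 0.35, edgeR adjusted p 0.00363). Wnt7b (0.29, SE 0.14, edgeR adjusted p 0.0807) did not pass, but did so without MT2 replicate 1 (0.40, edgeR adjusted p 0.0428). Dkk2, with 8 UMIs in both tumors together, did not pass (edgeR adjusted p 0.283), but it did with stromal cells kept (1.96, edgeR adjusted p 0.0106). In that setting the values of Sfrp1 (4.61), Wnt5a (-3.06) and Dkk3 (-1.81) were smaller and still passed. Each tumor comes from 1 mouse, so tumor and animal cannot be told apart, and these comparisons share libraries.

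With the mouse as replicate (4 sums of counts, mouse as block), 0 of 14948 genes passed in edgeR, a background of 0%, with 2216 at an unadjusted p under 0.05. None of the 9 members tested was called. Wnt6 did not pass the count filter here and was not tested, while Sfrp2 was. DESeq2 on the same sums called 1338 genes and 3 members: Wnt10a (3.27, adjusted p 0.00366), Wnt5b (-4.37, adjusted p 0.00870) and Wnt5a (-4.15, adjusted p 0.0114). In edgeR Wnt10a had 3.26 (SE 0.63, edgeR adjusted p 0.310) and Dkk2 -4.57 (SE 1.27, edgeR adjusted p 0.314). Sfrp1, whose changes went opposite ways in the mice, had 0.08 (SE 3.27, edgeR adjusted p 0.991).

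Of 79 other genes of the pathway listed by role, 64 were in the table and 51 could be tested. In MT1 against MG1, 14 were higher and 17 lower (60.8% called), and in MT2 against MG2, 13 were higher and 23 lower (70.6%), shares near the backgrounds of 59.3% and 67.0%. Their median log2 fold change was -0.04 in mouse 1 and -0.37 in mouse 2. Of 15 receptors and co-receptors, 3 were higher and 7 lower in mouse 1, and 4 were higher and 7 lower in mouse 2. Of 17 intracellular components, 5 were higher and 5 lower in mouse 1, and 3 were higher and 8 lower in mouse 2. Of 6 genes of the R-spondin arm, 1 was higher and 2 lower in mouse 1, and 1 was higher and 4 lower in mouse 2. Of 5 targets other than Axin2, 3 were higher in mouse 1, while in mouse 2 a total of 2 were higher and 1 was lower.

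Among ligands, Wnt4, a progesterone-responsive ligand of hormone-sensing cells, stood at 41.8 and 138 CPM in MG1 and 56.0 and 46.6 in MG2. MT1 libraries lay at 2.31 to 6.08 and MT2 libraries at 0, 0 and 0.153 CPM, below both glands. It was lower in MT1 than in MG1 (-4.15, SE 0.36, edgeR adjusted p 5.37e-08), and the ratio of MT2 to MG2 was 9.48e-04 (exact counting interval 1.15e-04 to 0.00345), from 2 and 410 UMIs. Wnt11 was lower in MT1 than in MG1 (-2.49, SE 0.47, edgeR adjusted p 1.99e-04), but not without MG1 replicate 1 (-0.23). It was also lower in MT2 than in MG2 (-1.61, SE 0.45, edgeR adjusted p 0.00444). Porcn, the enzyme that attaches the lipid to Wnt proteins, was at 9.71 CPM or more in MT2 libraries and at 4.71 or less in those of MT1 (log2 fold change of MT1 against MT2, negative where MT1 is lower, -1.51, SE 0.20, edgeR adjusted p 2.16e-06).

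Among receptors, Fzd10 was found in the glands (17.7 and 34.5 CPM in MG1, 20.5 and 18.1 in MG2) and was at 0 to 0.785 in MT1 (-5.92, SE 0.50, edgeR adjusted p 1.01e-07). It had 0 UMIs in MT2, at least 264-fold lower than MG2. Fzd1 was a receptor of MT2, at 92.2, 84.6 and 96.4 CPM against 7.15 and 3.82 in MG2 (4.18, SE 0.29, edgeR adjusted p 4.60e-10) and 0 to 1.96 in MT1. Fzd9 had 44 UMIs in MT1 and 0 in the other groups. Against MG1 this was a level at least 2.40-fold higher, with edgeR adjusted p 0.00711, and it was not called without MG1 replicate 1. Fzd9 could enter the fit only through its MT1 counts, so this p-value is no support beyond the counts. Ryk was lower in MT1 (21.2 to 28.2 CPM) than in MG1 (57.2 and 72.9), while MT2 (53.5 to 76.2) overlapped MG2 (67.8 and 72.9), and the difference of the changes was -1.46 (SE 0.25, edgeR adjusted p 1.39e-04).

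In the R-spondin arm, which prolongs the life of Frizzled receptors at the membrane, Rspo1 was present in the glands and in MT1 (2.75 to 6.17 CPM) and had 0 UMIs in MT2 against 84 in MG2, at least 144-fold lower. Lgr5, a receptor of R-spondins, had 3 UMIs in MT1 against 10 in MG1, a ratio of 0.0490 (exact counting interval 0.00866 to 0.190). It was also lower in MT2 than in MG2 (-2.97, SE 0.59, edgeR adjusted p 2.37e-04). Lgr6 was higher in MT2 (36.7 to 41.7 CPM) than in MG2 (11.3 and 9.93), with a change of 2.04 (SE 0.21, edgeR adjusted p 1.45e-07). In MT1 against MG1 it was higher by 0.64 (SE 0.27, edgeR adjusted p 0.0469).

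Of secreted inhibitors, Wif1, which binds Wnt ligands, was at 11.2 to 23.0 CPM in MT1 and 0.458 to 0.839 in MT2 against 14.1 and 9.42 in MG2 (MT2 against MG2 -4.09, SE 0.39, edgeR adjusted p 3.52e-08). Notum, an enzyme that removes the Wnt lipid and is itself a β-catenin target, had 0 UMIs in both glands, 35 in MT1 and 97 in MT2. For MT2 against MG2 this is at least 6.29-fold higher (edgeR adjusted p 7.10e-05). For MT1 against MG1 it is at least 1.91-fold higher (edgeR adjusted p 0.00991), and it was not called without MG1 replicate 1. Notum could enter the fit only through its tumor counts, so these p-values are no support beyond the counts. Lef1, a DNA-binding partner of β-catenin, had 45 UMIs in MT1 and 0 in the other groups. Set against MG1 it was at least 2.45-fold higher (edgeR adjusted p 0.0108), and it was not called without MG1 replicate 1. Lef1 could enter the fit only through its MT1 counts, so this p-value is no support beyond the counts. For Bcl9l, a co-activator of β-catenin, the change in mouse 1 was below that in mouse 2 (-1.48, SE 0.46, edgeR adjusted p 0.0146), but not without MG1 replicate 1 (0.47, edgeR adjusted p 0.746).

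Of the targets, Nkd2, an inhibitor of Dishevelled, was at 136 to 156 CPM in MT1 against 13.2 and 3.83 in MG1 (3.65, SE 0.29, edgeR adjusted p 1.55e-08) and at 0.210 to 0.764 in MT2. The difference of its changes between the mice (4.11, SE 0.94, edgeR adjusted p 0.00177) did not pass without MG2 replicate 2 (3.42, edgeR adjusted p 0.0827) or without the 5% of cells with most UMIs (2.82, edgeR adjusted p 0.273). Wisp1, a matricellular target of β-catenin, was at 73.4, 70.2 and 75.4 CPM in MT2 against 1.97 and 1.78 in MG2 (5.40, SE 0.28, edgeR adjusted p 8.16e-12) and at 4.71 to 8.91 in MT1. Wisp1 was also higher in MT1 than in MG1 (1.40, SE 0.44, edgeR adjusted p 0.011). Between the tumors, Nkd2 was higher in MT1 (8.13, SE 0.27, edgeR adjusted p 2.30e-14) and Wisp1 in MT2 (-3.40, SE 0.16, edgeR adjusted p 1.62e-12). These 2 genes were named for their large changes. Of 5 targets tested between the tumors, 2 were higher in MT1, 1 was higher in MT2 and 2 did not pass. Notum did not pass there either (-0.42, SE 0.34, edgeR adjusted p 0.277).

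**Figure D5:**
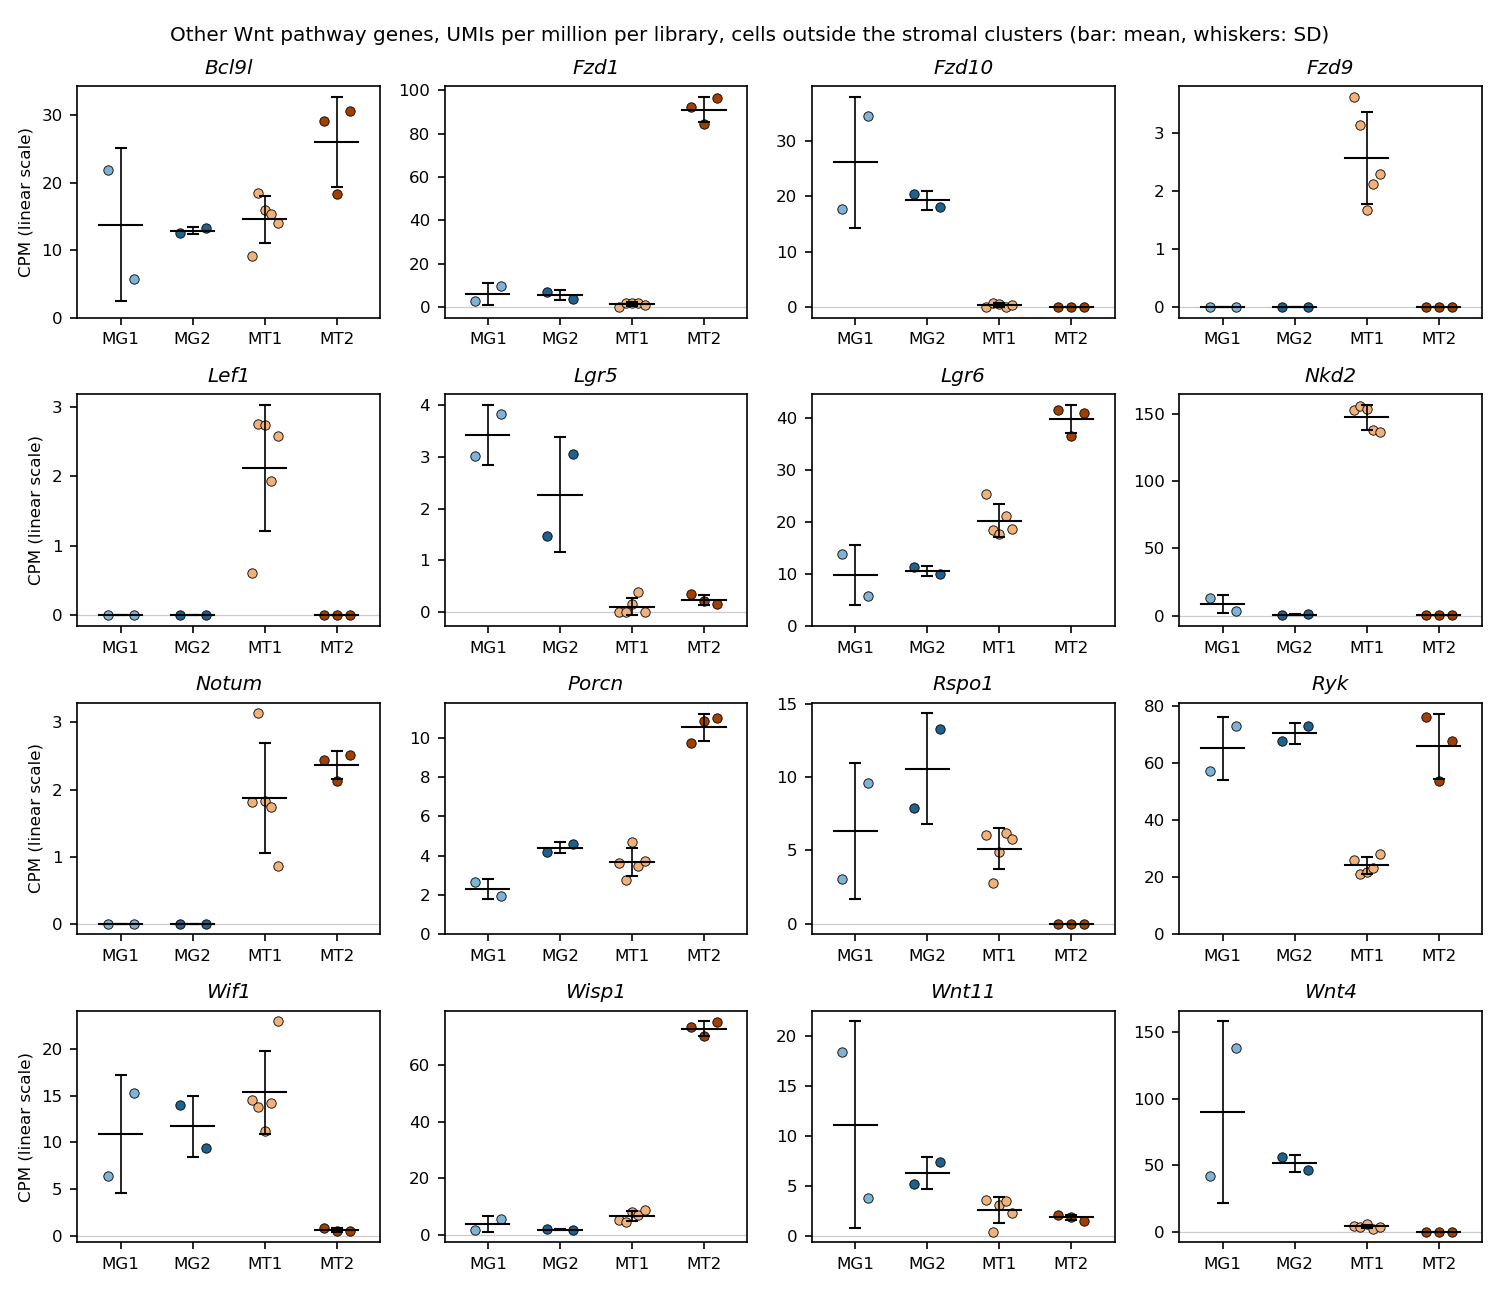
Level of 16 other pathway genes in every library in CPM on a linear scale, over cells outside the stromal clusters, with the mean and SD of MG1 (n = 2), MG2 (n = 2), MT1 (n = 5) and MT2 (n = 3). Nkd2 (136 to 156 CPM) and Fzd9 stand out in MT1, Fzd1 (84.6 to 96.4 CPM) and Wisp1 (70.2 to 75.4 CPM) in MT2, and Wnt4 and Fzd10 in the glands.

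The genes whose level most resembled that of each member with at least 500 UMIs were ranked by Pearson's r of log2(CPM + 10) over 19 sums of a cell class in a group, among 9447 genes. Points share libraries and depth, so r is only a description. Wnt6 was closest to Lipn (0.998), Vsig8 (0.989) and Tspyl3 (0.981). Dkk3 was closest to Pcsk5 (0.908), Mical2 (0.896) and Meg3 (0.889). The nearest genes were Bglap3 (0.889), Mfge8 (0.880) and Fcgbp (0.880) for Wnt5b and Kctd11 (0.884), Dnajc1 (0.883) and Rbms3 (0.837) for Wnt5a. For Sfrp1 they were Tbx15 (0.868), Cdkn1c (0.859) and Fgfr1 (0.838), for Wnt10a Trim59 (0.861), Pop1 (0.856) and Tpgs2 (0.852), and for Wnt7b Tmem138 (0.814), Exosc9 (0.801) and Phgdh (0.801). No other member was among the 3 nearest genes of a member. Sfrp2, Dkk2 and Axin2 (477, 112 and 187 UMIs) were below the limit of 500 UMIs and could not appear.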

How the data were processed

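The authors aligned with STAR to GRCm38.p6 and made digital counts with Drop-seq tools. What they deposited is 1 table of UMI counts that are not normalized, with 21743 genes and 21157 cells of 12 libraries, and each cell name ends in the tag of its library. Every cell had at least 800 genes and 1111 UMIs, so thinning to 800 UMIs left no cell out. Strand use in counting is not given in the sources used here.

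Clustering used scanpy 1.11.5 with leidenalg 0.10.2 (3000 variable genes without the Wnt genes, 30 principal components, 20 neighbours, resolution 0.6). A cluster was named where at least 3 markers of a list exceeded the other cells by a log2 fold of 1, and for lists other than the epithelial and mesenchymal ones at least 50% of the list. Those 2 general names were given only where no other list passed, and the list with the largest share gave the name. Doublets were not removed. The members, the pathway lists and the markers were chosen with earlier results of these data known. Named were all 10 members, up to 4 other pathway genes with the largest change in each direction of each comparison over libraries, and the 3 genes most like each member.

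UMIs were summed per library without stromal cells. Sums of all 4 groups entered 1 edgeR 4.0.16 model (R 4.3.3) with filterByExpr, TMM factors, quasi-likelihood testing and Benjamini-Hochberg adjustment, called under 0.05. SEs were derived as the size of the change over √F. Another model took 4 sums with the mouse as block, since the labels assign gland and tumor to a mouse. Levels are CPM of the plain total, without TMM factors. In data simulated for MT1 against MG1 (12563 genes), 44%, 74%, 86% and 90% of genes changed by log2 folds of 1, 2, 3 and 4 were recovered. There every gene had the same rate in all groups, except 50 genes for each fold, changed in MT1 only. In the measured data 59.3% of all genes were called in this comparison, so these rates need not hold there. Depth was 693333 to 14841414 UMIs per library. Intervals are exact Clopper-Pearson at 95%, a count of 0 was set at 3 counts over the group, and both cover counting error only.

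Alternatives were RLE scaling, DESeq2 1.42.0, no count filter, all cells, no gland cells in tumor clusters, no cells in the top 5% of UMIs, 2 other clusterings, only the groups compared, thinning to 500 UMIs or none, and each library left out. Gene positions are from a GENCODE annotation and promoters from RefSeq, both on the GRCm38 build of the files.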

Additional observations from a re-analysis of the deposited data

Results flagged for a closer look

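Among the 5 libraries of MT1, the only group large enough to test single values, Wnt10a was far from the others in replicate 1, at 23.6 CPM against 10.6 to 13.8. In that library the mesenchymal-like cluster had 58.4 CPM of Wnt10a against 16.7 to 30.8 in the other 4, and the cluster made up 21.2% of its cells against 9.40 to 21.0%. Dkk2 stood apart in the same library at 1.815 CPM, from 3 UMIs. Such a gap appears by chance in about 1 in 20 groups, and 10 members were examined.

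The tumor to gland change differed between the mice, by the test of the difference itself, for Sfrp1 (7.06 on the log2 scale, mouse 1 minus mouse 2), Wnt5b (5.50), Wnt5a (-4.91), Dkk3 (-3.88) and Axin2 (-2.91). Of these, Sfrp1 rose in mouse 1 and fell in mouse 2, and Wnt5a and Wnt5b fell in both mice by different amounts.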

How the results depend on the processing

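The number of members called stayed within 1.5 times its value under each alternative run in the 4 comparisons over libraries: 5 to 8 for MT1 against MG1, 7 throughout for MT2 against MG2, 5 to 6 for the difference between the mice and 7 to 9 for MT1 against MT2. With each library left out in turn it was 5 to 7, 7 throughout, 4 to 6 and 7 to 8. With the mouse as replicate it was 0 in edgeR, with and without the replicate block, and 3 with DESeq2, and the cause was not tested. The genes and members tested changed with the setting, and so did the share of all genes called. In MT1 against MG1, 8087 of 13643 genes were called in the main fit. Without the count filter it was 8737 of 21665, and with all cells 8725 of 14106. In MT1 against MT2 the genes called were 9331, 11989 and 9365 of the same totals. The steady counts of members are therefore no result about the pathway. Signs turned for members that had not passed or whose glands were near 0. Dkk3 in MT2 against MG2 became 0.0702 without the count filter and ranged from -0.0750 to 0.2448 with libraries left out. Wnt7b in the difference between the mice became 0.16 with all cells and 0.14 without the 5% of cells with most UMIs, and ranged from -0.37 to 0.0671 with libraries left out. Without MG1 replicate 1, which leaves 1 library of 105 cells as the gland of mouse 1 and assumes that it varies like the other groups, Dkk2 in MT1 against MG1 became 3.82 (range from -4.67) and Wnt10a in the difference between the mice 5.77 (range from -1.14). Axin2 with the mouse as replicate became -0.0047 with all cells. Keeping the stromal cells made several changes smaller: Dkk2 in MT2 against MG2 became -3.51, Sfrp1 3.79 in the difference between the mice and 4.61 in MT1 against MT2, Wnt5a -2.93 and -3.06, and Dkk3 -1.81 in the latter, where Dkk2 then passed (1.96, edgeR adjusted p 0.0106). Depth limits Axin2 and Dkk2: MG2 held 9 UMIs of Axin2 and MT2 3 of Dkk2 outside the stroma. Of the shares of cells with a UMI (10 members in 4 groups), 21 moved by at least the SD over libraries when cells were thinned to 500 UMIs, and 38 did so without thinning. Thinning to fewer UMIs lowers such shares by construction. At clustering resolution 1.0, Sfrp1 UMIs in epithelial-like clusters fell from 81.0% to 65.9% and Wnt7b UMIs in unnamed clusters rose from 52.3% to 55.2%, and the 8 other class shares stayed within their intervals. At that resolution, clusters with 420 and 326 MT1 cells did not meet the naming rule and counted as unnamed. The part of this in the moved shares was not tested.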
